A study of Homo sapiens with 6 samples.

Results

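The 31 genes described here encode the enzymes that make purine, pyrimidine and thymidine nucleotides, both from small precursors (de novo synthesis) and by recycling bases and nucleosides (salvage). They were taken by name from the 58302 gene identifiers in the count tables, and all 31 were matched and passed the filter on low counts that left 14018 genes for testing. They were measured by RNA sequencing in HL-60, an established line of human promyelocytic leukaemia, a form of acute myeloid leukaemia, grown in suspension. The study compared HL-60 cells carrying a short hairpin RNA (shRNA) against OSGEP (3 libraries, called knockdown) with HL-60 cells carrying a control shRNA (3 libraries, called control). All 6 libraries therefore came from cells with a hairpin, and no time, dose or drug treatment separates the groups in the labels. The sources used here do not give the number of hairpins or clones behind each group, nor whether each library is a culture of its own. A p-value here therefore reflects the spread of 3 libraries a group, which may be technical.

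The OSGEP protein is the catalytic part of KEOPS, an enzyme complex that adds the modified base t6A next to the anticodon in tRNAs for codons that begin with A. The study's stated interest was the role of OSGEP in this disease, including proliferation and apoptosis. As background, a purine is built atom by atom on the ribose phosphate of phosphoribosyl pyrophosphate (PRPP) until inosine monophosphate (IMP) is reached, and IMP is then turned into AMP or GMP. A pyrimidine ring is made first, joined to PRPP afterwards, and leads to UMP, CTP and, by methylation of dUMP, thymidylate for DNA. Dividing leukaemic cells draw heavily on both routes, and antimetabolites used in leukaemia, such as mercaptopurine and methotrexate, act on them.

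The total count per library lay between 8326982 and 10157091, and a member had between 96 and 4921 counts in a library. Levels are CPM values (read counts scaled to a common library size) after TMM normalisation, which also corrects for differences in composition. OSGEP itself had 49.0, 54.4 and 76.9 CPM in the control libraries and 21.2, 23.1 and 20.9 CPM in the knockdown libraries, with no overlap (log2 fold change -1.47 with SE 0.21, edgeR adjusted p = 0.000228). Of the 8 markers listed for the labelled cell type, all were tested and 4 fell (MPO, AZU1, ELANE and PRTN3). CTSG, CD33, SPI1 and CEBPE were not called, at -0.72, -0.03, -0.14 and 0.94 on the log2 scale. The summed level of all 8, most of it MPO and PRTN3, was 2871 to 3014 CPM in controls and 1125 to 1219 CPM in the knockdown. Erythroid markers summed to at most 7.93 CPM in any library, with HBG1 at 0 in all 6. Lymphoid markers summed to 84.1 to 98.5 CPM in controls and 24.8 to 28.8 CPM in the knockdown, almost all of it NKG7, with CD3E and CD3D under 1 CPM in every library. NKG7 was called lower (log2 fold change -1.88 with SE 0.17, edgeR adjusted p = 2.08e-06). Epithelial and mesenchymal markers summed to 21.8 to 30.3 CPM in controls and 35.1 to 54.3 CPM in the knockdown. Of these, CDH1 was called higher (log2 fold change 1.59 with SE 0.42, edgeR adjusted p = 0.0219), and 4 other tested markers were not called by edgeR. Whether the shift in these markers has a part in the values of the nucleotide genes was not tested.

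Of the 31 nucleotide synthesis genes, 5 fell in the knockdown and the other 26 were not called. The called falls lay in thymidylate supply (TK1, DUT, TYMS), in purine salvage (PNP) and in the purine ring pathway (PAICS). A gene was called where the edgeR quasi-likelihood test gave a Benjamini-Hochberg adjusted p under 0.05 over all genes tested. By that rule 5 of the 31 genes were lower (16.1%) and 0 were higher, where 10.8% of all genes tested were called in either direction, 5.56% lower and 5.19% higher. DESeq2 called 6 members lower, adding PRPS1, and 0 higher, where it called 5.25% and 5.42% of all genes it tested. The limma-voom test called 8 lower, adding PRPS1, PFAS and IMPDH1, and 0 higher, where it called 6.18% and 4.9% of all genes. GUK1 alone was higher at an unadjusted edgeR p under 0.05 (3.23% of members, 11.0% of all genes). At the same unadjusted level 13 members were lower (41.9%), where 11.9% of all genes were. Every knockdown library lay below every control library for 14 members (45.2%), where this held for 15.6% of all genes tested, and every knockdown library lay above every control library for GUK1, where this held for 13.3% of all genes.

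The log2 fold change was below 0 for 26 of the 31 members (83.9%), beside 49.7% of all genes tested, and its median was -0.30, beside 0.01 for all genes. On GRCh38, TK1 (ENSG00000167900) lies at chr17:78174075-78187233, DUT (ENSG00000128951) at chr15:48331011-48343373, TYMS (ENSG00000176890) at chr18:657604-673578, PNP (ENSG00000198805) at chr14:20468954-20477094 and PAICS (ENSG00000128050) at chr4:56435741-56464579. The members together held 3540 to 3774 CPM in the control libraries and 2772 to 2996 CPM in the knockdown libraries. In RNA from whole cultures, a smaller share of cells with a transcript cannot be told apart from less of it per cell. The members were chosen with earlier results of these libraries known, and their fold changes share the same 6 libraries, so these shares describe the list and are not a test of it.

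**Figure D1:**
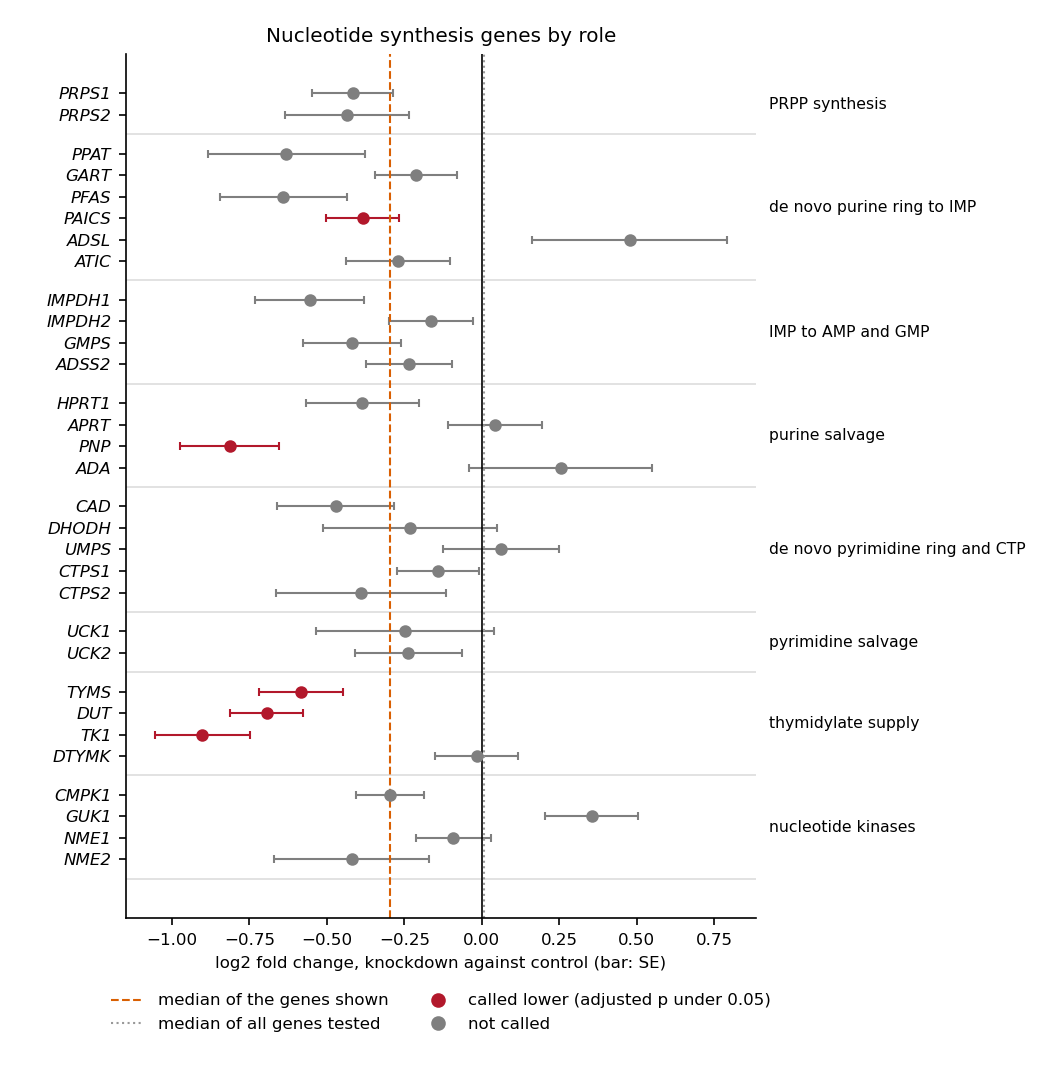
Log2 fold change of each of the 31 genes in the knockdown against the control (x axis; points with standard errors), grouped by role, with called genes in red. The median of the genes shown is -0.30 and the median of all genes tested is 0.01, and 5 genes were called, all lower.

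Thymidylate supply held 3 of the 5 called falls, and stretches at the starts of these genes are shown because of that. Sequences are from RefSeq's GRCh38 promoter table, on the strand of the gene, 5′ to 3′, and capitals mark exact matches to the E2F letters TTTGGCGC, TTTCCCGC, TTTGGCGG or TTTCGCGC on either strand; E2F factors drive many S-phase genes. The TYMS stretch is chr18:657454-657633 on the plus strand, the DUT stretch chr15:48332152-48332181 on the plus strand, and the TK1 stretch chr17:78187204-78187316 on the minus strand. The TYMS stretch runs from 150 bases before the GENCODE start into the first 30 bases of the gene, and the TK1 stretch ends 30 bases into its gene. The DUT stretch lies inside the annotated gene just before a RefSeq start. It was cut as 30 bases centred on the E2F matches of DUT. The numbers of matches in the stretches are therefore not a like comparison.
TYMS: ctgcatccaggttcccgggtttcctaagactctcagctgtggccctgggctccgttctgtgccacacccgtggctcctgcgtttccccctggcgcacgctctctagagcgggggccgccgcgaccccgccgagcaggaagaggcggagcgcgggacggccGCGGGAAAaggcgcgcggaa
DUT: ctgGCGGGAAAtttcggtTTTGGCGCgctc
TK1: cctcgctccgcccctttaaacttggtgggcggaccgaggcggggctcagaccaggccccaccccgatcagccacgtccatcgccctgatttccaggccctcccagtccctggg
DUT held 2 matches, at -42 and -27 from its RefSeq start, TYMS held 1 at -39, and the TK1 stretch held none of these letters.

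TK1 encodes the cytosolic thymidine kinase that salvages thymidine in S phase. Its level was 118, 132 and 121 CPM in the control libraries and 66.3, 54.7 and 77.8 CPM in the knockdown libraries. All knockdown libraries were well below the controls, and the mean of 66.3 ± 11.5 CPM was 53.6% of the control mean of 124 ± 7.31 CPM (SD, n = 3 each; log2 fold change -0.90 with SE 0.15, edgeR adjusted p = 0.000978). DUT encodes the dUTPase that keeps uracil out of DNA and yields dUMP for thymidylate synthesis. DUT stood at 396, 403 and 409 CPM in controls and at 248.6, 211.6 and 286.1 CPM in the knockdown. The controls were nearly equal and the knockdown libraries were spread more widely beneath them, with means of 402 ± 6.75 and 248.8 ± 37.2 CPM (SD, n = 3 each; log2 fold change -0.69 with SE 0.12, edgeR adjusted p = 0.000927).

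TYMS encodes thymidylate synthase, which methylates dUMP and is the target of fluorouracil. It had 234, 231 and 238 CPM in the control libraries and 126, 182 and 161 CPM in the knockdown libraries. The groups did not overlap, with knockdown library 1 the lowest (log2 fold change -0.58 with SE 0.13, edgeR adjusted p = 0.00923). Without control library 3 the edgeR adjusted p was 0.0535. Of the exon bases of TYMS, 46.6% are also covered by genes on the other strand (ENOSF1 and TYMSOS). ENOSF1 had 78.1 ± 11.2 CPM in controls and 62.5 ± 9.84 CPM in the knockdown and was not called (edgeR adjusted p = 0.289), and the library kit marks strand, but whether the counting used strand is not given in the sources used here. The last thymidylate gene, DTYMK, whose kinase turns dTMP into dTDP, had 137 ± 5.69 CPM in controls and 135 ± 18.3 CPM in the knockdown (SD, n = 3 each), with overlapping groups and a log2 fold change of -0.02 (SE 0.13). Thymidylate supply as a role thus held 3 called genes of 4, with a median of -0.64.

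**Figure D2:**
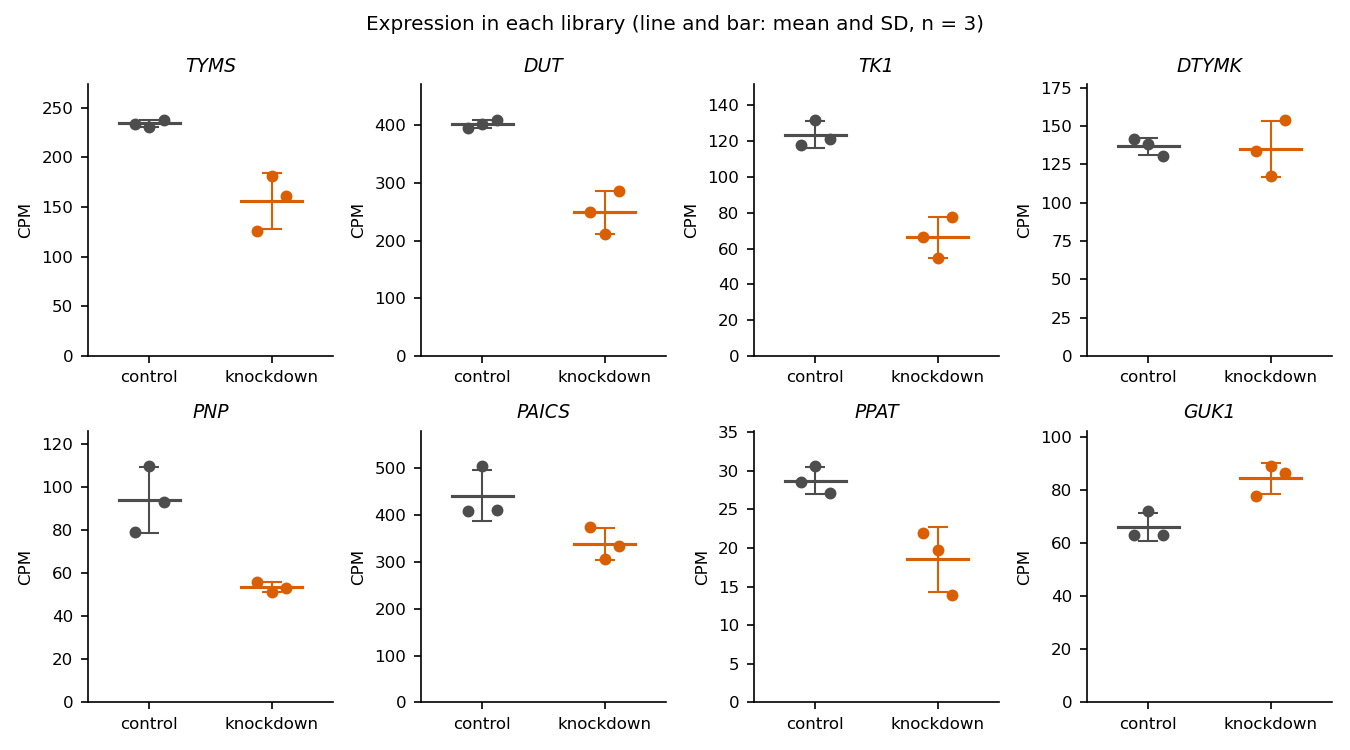
Expression in CPM (y axes, from 0) in each control (grey) and knockdown (orange) library for 8 genes, with mean and SD of 3 libraries. TK1, DUT, TYMS, PNP, PAICS and PPAT show knockdown points all below the control points, DTYMK shows overlapping groups, and GUK1 shows knockdown points all above.

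PNP encodes purine nucleoside phosphorylase, which releases hypoxanthine and guanine from inosine and guanosine, and inherited loss of it harms T cells. Its level was 79.1, 109 and 92.8 CPM in the control libraries and 55.8, 51.3 and 52.9 CPM in the knockdown libraries. The knockdown libraries were close together and all below the lowest control, at 56.9% of the control mean (log2 fold change -0.81 with SE 0.16, edgeR adjusted p = 0.00309). On chromosome 14, 13848 bases separate the start of PNP from the start of OSGEP, which is on the minus strand, with 2 genes between them. Neither was called: APEX1 had a log2 fold change of -0.18 (edgeR adjusted p = 0.403) and PIP4P1 one of 0.02 (edgeR adjusted p = 0.961). Of the exon bases of PNP, 11.9% are shared with ENSG00000258908 on the other strand.

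The other purine salvage genes were not called. HPRT1, which rebuilds IMP and GMP from hypoxanthine and guanine and activates mercaptopurine, had 57.4 ± 6.86 CPM in controls and 44.0 ± 6.39 CPM in the knockdown (SD, n = 3 each; log2 fold change -0.39 with SE 0.18, edgeR adjusted p = 0.221). APRT, the matching enzyme for adenine, had 93.3 ± 14.1 and 96.0 ± 7.30 CPM (log2 fold change 0.04). ADA, the deaminase of adenosine, ranged from 16.8 CPM in knockdown library 2 to 42.6 CPM in knockdown library 1, around control values of 25.2 to 31.4 CPM. The knockdown spread of ADA thus enclosed the control group (log2 fold change 0.25 with SE 0.30).

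PAICS, which carries out a pair of middle steps of the purine ring pathway, was the fifth called gene and the one nearest the threshold. Its level was 408, 503 and 411 CPM in the control libraries and 375, 305 and 333 CPM in the knockdown libraries. The groups did not overlap, and control library 1 and knockdown library 1 were the nearest to each other (log2 fold change -0.38 with SE 0.12, edgeR adjusted p = 0.0453). PAICS lost its call in 8 of 14 alternatives, among them RLE size factors (-0.37, edgeR adjusted p = 0.0646), library size alone (-0.32, adjusted p = 0.0702) and the replicate number as a block (-0.38, adjusted p = 0.127). It also lost the call without control library 1, 2 or 3 (-0.44, -0.28 and -0.44) and without knockdown library 2 or 3 (-0.30 and -0.36), so its call depends on the libraries and the scaling used.

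PPAT, the amidotransferase of the first committed step of purine synthesis, is the head-to-head neighbour of PAICS on chromosome 4. The RefSeq starts of the pair lie 136 bases apart, and these bases, chr4:56435616-56435751 on the plus strand of GRCh38, are shown in the direction of PAICS because both genes were lower in every knockdown library.
PAICS and PPAT: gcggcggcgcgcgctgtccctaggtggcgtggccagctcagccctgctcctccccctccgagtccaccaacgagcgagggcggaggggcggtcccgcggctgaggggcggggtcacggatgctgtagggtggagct
The stretch has a GC content of 75.0%. It holds no E-box of the letters CACGTG, but 1 such E-box lies at chr4:56435792-56435797, 40 bases into PAICS and at -182 from the start of PPAT. PPAT had 28.5, 30.6 and 27.1 CPM in the control libraries and 22.02, 19.69 and 13.88 CPM in the knockdown libraries. Its mean in the knockdown was 64.5% of the control, a lower share than the 76.6% of PAICS, but it was not called (log2 fold change -0.63 with SE 0.25, edgeR adjusted p = 0.137). The difference between the fold changes of this pair was not tested.

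The remaining purine ring genes were not called. PFAS, the synthase of the fourth step, had 40.5, 45.2 and 51.0 CPM in the control libraries and 25.7, 27.9 and 34.0 CPM in the knockdown libraries. The groups did not overlap and the knockdown mean was 64.1% of the control, yet the test missed the threshold (log2 fold change -0.64 with SE 0.21, edgeR adjusted p = 0.0574). GART, a trifunctional enzyme of the pathway that uses folate, had 139 ± 13.9 CPM in controls and 120.2 ± 7.996 CPM in the knockdown (SD, n = 3 each), with groups that barely separated at 128 and 129 CPM. ATIC, which closes the ring to give IMP and also uses folate, had 103 ± 13.8 and 85.2 ± 18.0 CPM with overlapping groups (log2 fold change -0.27 with SE 0.17). ADSL, which splits off fumarate in both the ring pathway and the step to AMP, was the exception in sign. It had 9.89, 10.4 and 16.6 CPM in the control libraries and 18.4, 15.5 and 17.4 CPM in the knockdown libraries, with overlap in 1 control library (log2 fold change 0.48 with SE 0.32, edgeR adjusted p = 0.420). Of the exon bases of ADSL, 18.9% are shared with other genes on its strand, and the overlapping gene ENSG00000284431 had 0 counts in all 6 libraries. How reads in these shared exons were assigned is not given in the sources used here. The purine ring genes had a median log2 fold change of -0.33 over 6 genes.

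PRPP synthetases stand at the head of all these routes. PRPS1 had 179, 178 and 198 CPM in the control libraries and 134, 123 and 159 CPM in the knockdown libraries. The groups did not overlap, and the edgeR adjusted p of 0.0518 was just over the threshold (log2 fold change -0.42 with SE 0.13); DESeq2 and limma-voom called it. PRPS2, the second isoform, had 60.0, 65.5 and 42.5 CPM in controls and 35.2, 46.3 and 42.8 CPM in the knockdown. Control library 3 fell among the knockdown libraries (log2 fold change -0.43 with SE 0.20, edgeR adjusted p = 0.207).

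In the branch from IMP to GMP and AMP, 0 of 4 genes were called by edgeR, 2 were lower at an unadjusted p under 0.05, and limma-voom called IMPDH1. IMP dehydrogenase is the rate-limiting step towards GMP and the target of mycophenolate. IMPDH1 had 59.8, 70.7 and 78.8 CPM in the control libraries and 40.9, 48.4 and 53.0 CPM in the knockdown libraries, without overlap (log2 fold change -0.56 with SE 0.18, edgeR adjusted p = 0.0543). IMPDH2, the main form in dividing cells, had 250, 254 and 301 CPM in controls and 282, 240 and 196 CPM in the knockdown, with overlap (log2 fold change -0.17 with SE 0.14). GMPS, which aminates XMP to GMP, had 83.9 ± 10.6 CPM in controls and 62.7 ± 5.37 CPM in the knockdown without overlap (log2 fold change -0.42 with SE 0.16, edgeR adjusted p = 0.112). ADSS2, the first enzyme from IMP to AMP, had 104 ± 8.03 and 88.7 ± 6.59 CPM, without overlap but only just, at 95.7 CPM in the lowest control and 95.4 CPM in the highest knockdown library (log2 fold change -0.23 with SE 0.14).

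The pyrimidine ring and CTP genes held 0 calls among 5 by edgeR, DESeq2 or limma-voom, with CAD at an unadjusted edgeR p under 0.05. CAD, a single protein with the first 3 enzymes of the pathway, had 71.4, 65.6 and 58.0 CPM in the control libraries and 52.7, 52.2 and 35.6 CPM in the knockdown libraries. The groups did not overlap (log2 fold change -0.47 with SE 0.19, edgeR adjusted p = 0.136). DHODH, the mitochondrial enzyme that is the target of leflunomide and brequinar, had 19.2 ± 3.76 and 16.3 ± 2.52 CPM (SD, n = 3 each; log2 fold change -0.23 with SE 0.28). UMPS, which makes orotate into UMP, had 66.3 ± 6.89 CPM in controls and 69.3 ± 16.8 CPM in the knockdown, where its lowest and highest values over all libraries both lay in the knockdown. CTPS1, the CTP synthase needed by proliferating lymphocytes, had 138 ± 7.14 and 125 ± 14.1 CPM with overlap. CTPS2, its relative, had 32.0 ± 5.54 and 24.4 ± 8.29 CPM, the latter mean drawn down by 14.9 CPM in knockdown library 2.

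Among the uridine-cytidine kinases and the kinases that raise monophosphates to triphosphates, 0 of 6 were called by edgeR, DESeq2 or limma-voom, with CMPK1 lower and GUK1 higher at an unadjusted edgeR p under 0.05. UCK1 and UCK2, which salvage uridine and cytidine, had log2 fold changes of -0.25 (SE 0.29) and -0.24 (SE 0.17), with overlapping groups. CMPK1, which phosphorylates UMP and CMP, had 252 ± 16.1 CPM in controls and 205 ± 6.62 CPM in the knockdown (SD, n = 3 each), without overlap and without a call (log2 fold change -0.30 with SE 0.11, edgeR adjusted p = 0.108). GUK1, the guanylate kinase, was the only member with every knockdown library above every control library. Its values were 63.1, 72.2 and 63.1 CPM in controls and 78.0, 89.0 and 86.6 CPM in the knockdown. It was not called either (log2 fold change 0.35 with SE 0.15, edgeR adjusted p = 0.159). NME1, a nucleoside diphosphate kinase, had 178 ± 19.0 and 167 ± 4.73 CPM with overlapping groups (log2 fold change -0.09 with SE 0.12).

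Several members have processed pseudogenes, copies of their mRNA elsewhere in the genome, and how reads with several alignments were treated is not given in the sources used here. For NME2 this matters most: its named pseudogenes held 80.5% of the CPM of gene plus pseudogenes in the control and 85.3% in the knockdown. NME2 had 34.9 ± 9.70 CPM in controls and 26.0 ± 3.80 CPM in the knockdown (log2 fold change -0.42 with SE 0.25), and NME2P1 had 142 ± 2.43 and 154 ± 28.7 CPM (log2 fold change 0.11). With pseudogene counts added, an alternative chosen after seeing the data, NME2 stood at 0.03, so no direction can be given for it. The readthrough gene NME1-NME2, which covers 22.9% of the exon bases of NME2 and 18.6% of those of NME1 on the same strand, had 0 counts in all 6 libraries. How reads in these shared exons were assigned is not given in the sources used here. The levels of NME1 and NME2 and the pseudogene share of NME2 carry that limit.

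For DUT the pseudogene share was 16.8% in the control and 15.2% in the knockdown. DUTP5 on chromosome 6, a processed pseudogene of DUT, fell as DUT did, from 79.4 ± 8.43 to 44.1 ± 7.06 CPM (SD, n = 3 each; log2 fold change -0.85 with SE 0.17, edgeR adjusted p = 0.00398). With the pseudogene counts added to DUT its log2 fold change was -0.72. The share was 24.1% and 22.5% for GMPS, 9.45% and 7.60% for PPAT, 3.36% and 13.0% for IMPDH1 and 2.34% and 2.44% for PAICS, in control and knockdown in turn. IMPDH1 moved most after NME2 when these counts were added, from -0.56 to -0.40 (edgeR adjusted p = 0.178), and the same 5 genes were called.

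**Figure D3:**
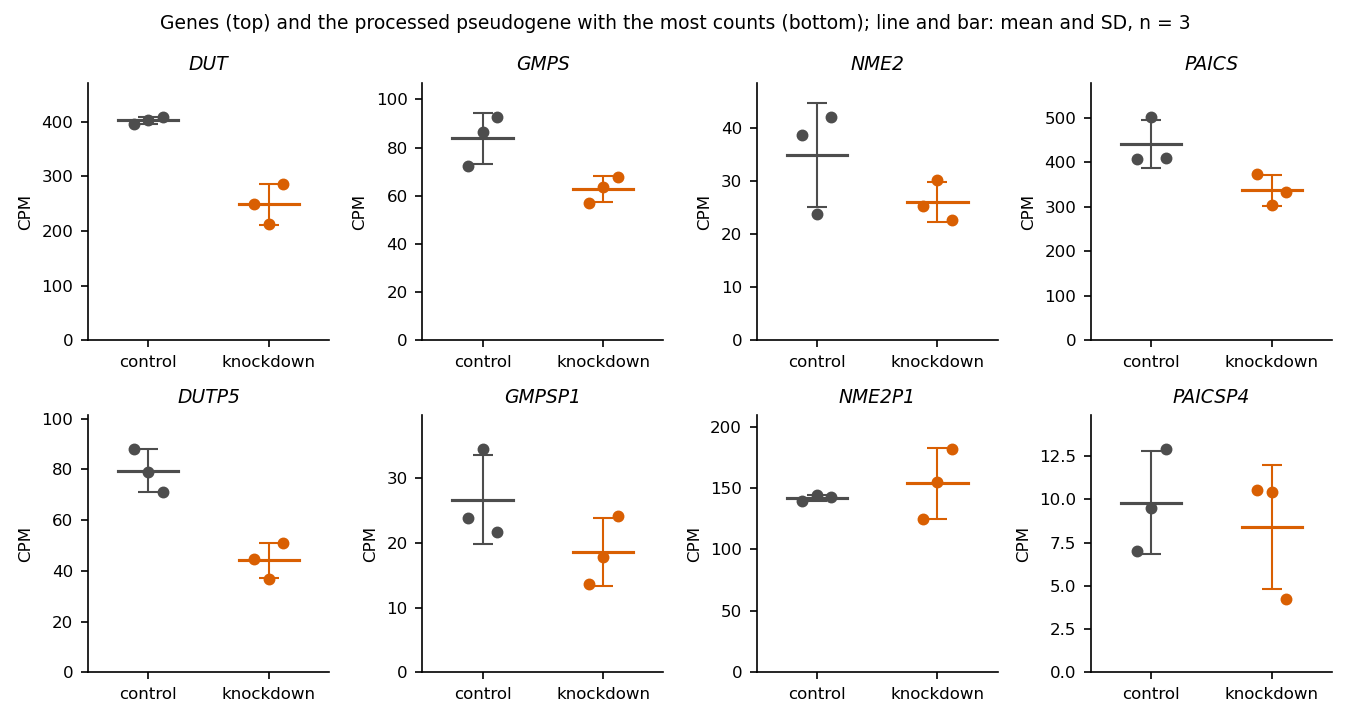
Expression in CPM (y axes, from 0) of 4 genes (top) and their processed pseudogene with the most counts (bottom) in each control (grey) and knockdown (orange) library, with mean and SD of 3 libraries. DUT and DUTP5 both lie lower in the knockdown, and NME2P1 lies above NME2 in every library.

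Per kilobase of annotated exons, the scale on which genes can be set side by side, DUT had the highest value of the members in the control at 110 ± 1.84 CPM per kb (SD, n = 3). IMPDH2 at 96.9 ± 10.2 and TYMS at 94.8 ± 1.39 CPM per kb came next and differed by less than the spread of IMPDH2. PRPS1 at 70.6 ± 4.20, TK1 at 66.4 ± 3.93 and CMPK1 at 65.5 ± 4.18 CPM per kb followed, with neighbours apart by less than the larger of their SDs. The lowest were PPAT at 5.28, DHODH at 2.77 and ADSL at 1.73 CPM per kb. In the knockdown the order at the top changed, with IMPDH2 first at 86.4 CPM per kb, DUT at 67.7 and TYMS at 63.2. Exon length here is the union over all annotated transcripts, so levels of genes with long, rarely used exons are understated. Of the exon bases of ADSL, 18.9% are shared with other genes on its strand. How reads there were assigned is not given in the sources used here, so its level may be understated and its last place is uncertain. In the control NME2 stood at 13.2 CPM per kb and its pseudogene NME2P1 at 344 CPM per kb. Reads of NME2 may have been assigned to NME2P1, so the level of NME2 may be understated. The first places of DUT and IMPDH2 are therefore uncertain too.

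**Figure D4:**
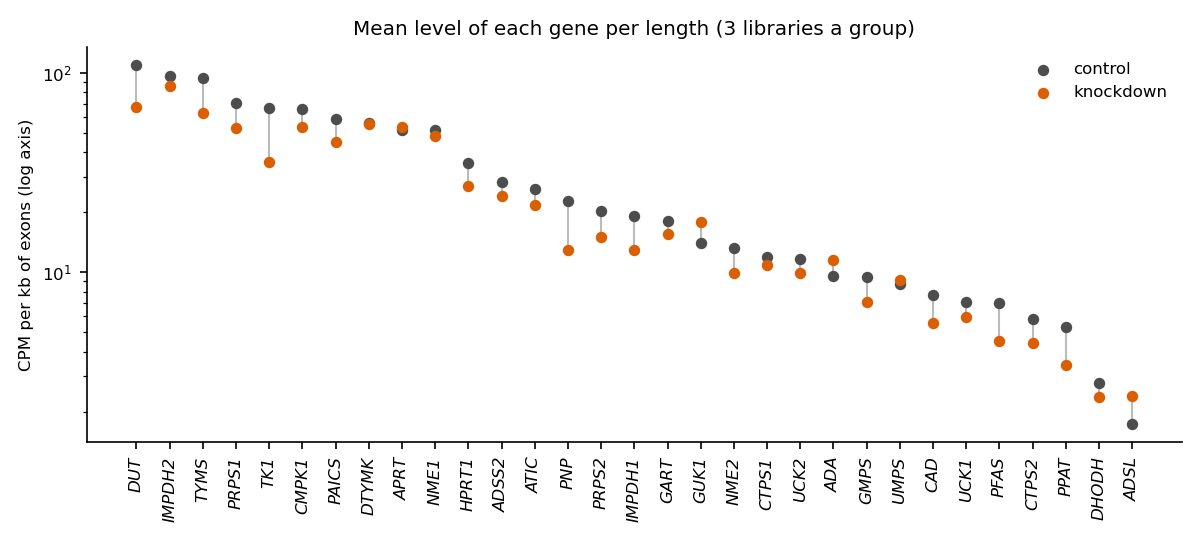
Mean level of each of the 31 genes in CPM per kb of annotated exons (y axis, log scale) in the control (grey) and the knockdown (orange), ordered by the control. DUT has the highest value in the control at 110 CPM per kb, with reads assigned to pseudogenes not included. ADSL, with 18.9% of its exon bases shared with other genes on its strand, is lowest at 1.73.

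The balance between isozymes was compared in 5 pairs as the share of the pair's CPM per kb held by 1 member, with a two-sided exact permutation test whose smallest possible p is 0.1. PRPS1 held 77.7 ± 4.74% of its pair in the control and 77.8 ± 3.56% in the knockdown (SD, n = 3 each; exact p = 1). IMPDH1 held 16.4 ± 1.04% and 13.4 ± 3.55% (exact p = 0.3), CTPS1 67.5 ± 4.89% and 71.6 ± 6.44% (exact p = 0.5), UCK1 37.5 ± 5.34% and 38.0 ± 3.68% (exact p = 0.9) and NME1 79.5 ± 6.18% and 83.1 ± 2.43% (exact p = 0.4). Adjusted over the 5 pairs, the exact permutation p-values were 0.833 or 1, in a design that could not reach 0.05. The last share rests on the counts assigned to NME1 and NME2, with the limits given above for the pseudogenes of NME2 and for the exons both genes share with NME1-NME2.

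Promoter windows of 250 bases before and 50 from the RefSeq start on were held for 29 members, 44 windows in all, out of 35116 windows over all genes. The E2F letters, searched on both strands, were in 5 member windows (11.4%), beside 3.35% of all windows. They belonged to DUT, TYMS, GMPS (-101), GART (-245) and PRPS2 (-12). Of these, DUT and TYMS were called and GMPS, GART and PRPS2 were not. The E-box CACGTG, the motif of MYC and its relatives, was also in 5 member windows (11.4%), beside 7.26% of all. These were windows of ATIC (-46 and 29), DHODH (-159), NME1 (34) and the shared site of PPAT and PAICS, of which PAICS was called. The ATF4-type letters TGATGCAA and TGATGAAA were in 0 member windows and in 1.96% of all. These matches describe the letters in a window only.

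The transcripts of 3 factors linked to such motifs were read next. MYC had 486, 564 and 558 CPM in the control libraries and 367, 292 and 340 CPM in the knockdown libraries, without overlap (log2 fold change -0.69 with SE 0.11, edgeR adjusted p = 0.0006025). ATF4 had 204, 206 and 200.1 CPM in controls and 395, 397 and 437 CPM in the knockdown, without overlap (log2 fold change 1.01 with SE 0.10, edgeR adjusted p = 8.07e-06). E2F1 had 33.8, 58.5 and 50.1 CPM in controls and 48.5, 22.9 and 25.7 CPM in the knockdown, with overlap through knockdown library 1 (log2 fold change -0.55 with SE 0.28, edgeR adjusted p = 0.259). Without that library E2F1 was called, at -0.97 (edgeR adjusted p = 0.0190). It was not called in 12 of 13 alternatives, and its log2 fold change lay between -0.97 and -0.33 over all 13. The part of any of them in the members' levels was not tested.

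The pathways that feed nucleotide synthesis held called rises as well as falls. Beside the counts for these and the lists after them, 5.19% of all genes tested were called higher and 5.56% lower. Of 7 pentose phosphate genes, which supply ribose phosphate and NADPH, 3 rose and 1 fell, with a median of 0.27. PGD, which makes ribulose phosphate, rose from 99.2 ± 4.36 to 179 ± 5.23 CPM (log2 fold change 0.85 with SE 0.12, edgeR adjusted p = 0.000213). RPIA, which yields the ribose phosphate used for PRPP, fell from 117 ± 12.9 to 79.8 ± 19.0 CPM (log2 fold change -0.55 with SE 0.17, edgeR adjusted p = 0.0496), a call that 8 of 13 alternatives did not give.

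Among 17 tested folate and serine genes, which supply the one-carbon units of purines and thymidylate, 4 rose and 1 fell, with a median of 0.14. PSAT1, a serine synthesis enzyme, rose from 98.6 ± 5.01 to 270 ± 32.6 CPM (log2 fold change 1.45 with SE 0.13, edgeR adjusted p = 1.16e-06). PHGDH, the first enzyme of that route, had 0.92 (SE 0.19), and ALDH1L2, a mitochondrial folate enzyme, 1.34 (SE 0.28), both called. Of 9 tested glutamine and aspartate genes, which give the ring nitrogens, 2 rose and 0 fell by edgeR, with 1 lower at an unadjusted edgeR p under 0.05. The rises were GOT1, an aspartate aminotransferase, at 0.83 (SE 0.19), and SLC1A5, a glutamine carrier, at 0.43 (SE 0.13, edgeR adjusted p = 0.0366). The lower gene, named as an exception, was GLUL, glutamine synthetase, at -0.32 (SE 0.10, edgeR adjusted p = 0.0584). DESeq2 (adjusted p = 0.0329) and limma-voom (adjusted p = 0.0259) called GLUL lower. GOT1 was not called without control library 1 or 3 (edgeR adjusted p = 0.0609 and 0.0571), and SLC1A5 was lost in 6 of 13 alternatives.

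Of 12 tested genes of deoxynucleotide supply, DCK, the deoxycytidine kinase that activates cytarabine, was the single call, at 216 ± 15.7 CPM in controls and 142 ± 16.8 CPM in the knockdown (log2 fold change -0.60 with SE 0.13, edgeR adjusted p = 0.00480). The list's median was -0.0042, and a single call among 12 genes is near the 10.8% of all genes called in either direction. Without knockdown library 3 the edgeR adjusted p of DCK was 0.0537. Of 16 other nucleotide kinases and partners, 4 fell and 0 rose, with 0 higher at an unadjusted edgeR p under 0.05. Adenylate kinases of the mitochondrial matrix were among them. AK4 fell by 2.02 on the log2 scale (SE 0.50) and AK3 by 0.62 (SE 0.18); AK4 was not called without control library 1 or knockdown library 3, and AK3 was lost in 9 of 13 alternatives.

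Of 16 tested genes of nucleotide breakdown, NT5C2, a cytosolic nucleotidase that acts on IMP and GMP, rose from 6.29 ± 2.55 to 18.0 ± 1.28 CPM (log2 fold change 1.51 with SE 0.37, edgeR adjusted p = 0.0130). Without control library 2 or 3 it was not called (edgeR adjusted p = 0.0631 and 0.0689). In that list 0 were called lower, with 2 lower at an unadjusted edgeR p under 0.05, and its single call is near the share over all genes. The replication fork genes, a reference list of DNA replication genes, held 10 called falls among 15 and a median of -0.55. Its largest falls were GINS2 at -1.09 (SE 0.23), GINS1 at -0.999 (SE 0.17) and POLA1 at -0.79 (SE 0.17). The nucleotide synthesis genes, with 5 of 31 called and a median of -0.30, and the thymidylate genes among them, with 3 of 4 and -0.64, are given beside that list without a test of the difference.

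**Figure D5:**
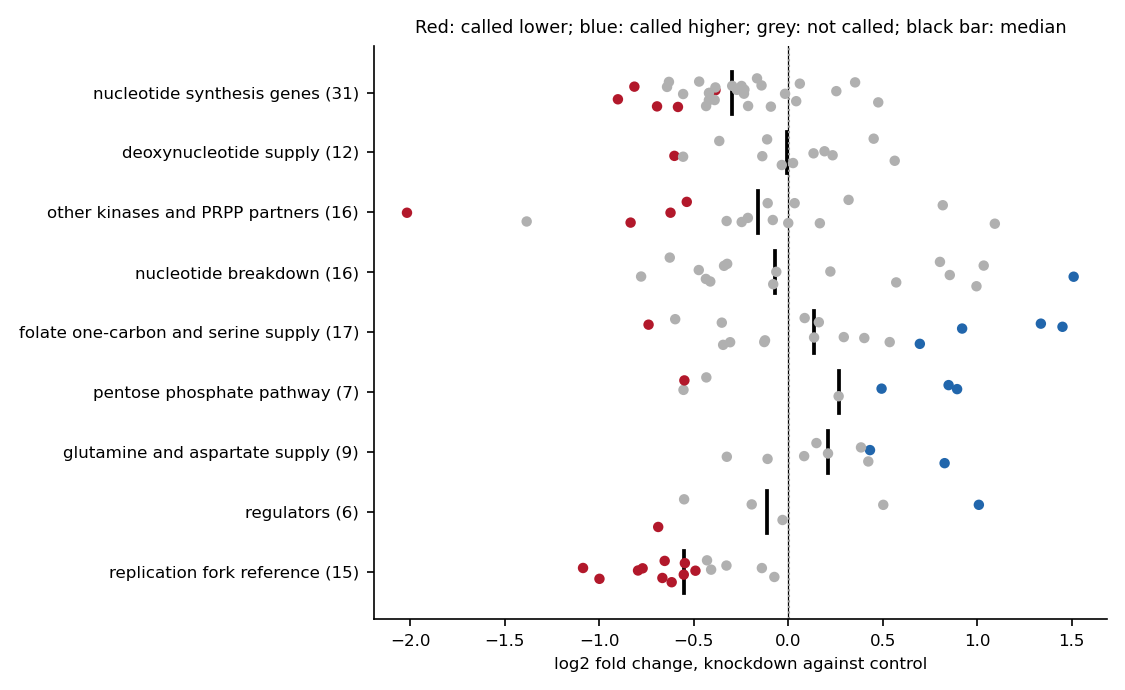
Log2 fold changes (x axis) of the tested genes of each list (number in brackets), with called falls in red, called rises in blue, genes not called in grey and the list median as a black bar. The replication fork list has its median at -0.55, the nucleotide synthesis genes at -0.30 and the pentose phosphate list at 0.27.

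Since the modification made by KEOPS concerns codons that start with A, the share of such codons was read from the coding sequence of each member. It ran from 16.1% in APRT to 33.0% in HPRT1, with a median of 27.0% over the 31 genes. Over 11118 protein-coding genes tested the median was 27.3%. The 5 called members had a median of 26.6%, and the 26 not called 27.0%. DUT, with 19.8% of codons starting with A, and PAICS, with 30.4%, were the lowest and highest of the called genes.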

How the data were processed

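Total RNA of 6 HL-60 libraries was sequenced with a stranded mRNA kit, per the labels' protocols. The values deposited by the authors are read counts, whole numbers without normalisation, in 1 table of Ensembl genes for each library. The submitters' processing notes name HISAT2 2.1.0, featureCounts 1.6.3 and the builds GRCh38 and GRCm38 without roles. Not given in the sources used here are the annotation release, the strand setting and how multiply aligned reads were treated. Positions and exon lengths came from GENCODE release 29 on GRCh38, which held 58039 of 58302 identifiers.

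Groups were taken from the sample titles. Genes were tested with the two-sided quasi-likelihood test of edgeR 4.0.16 (R 4.3.3) with TMM normalisation, group as the only term and default filterByExpr, which kept 14018 genes and left out 44284. Benjamini-Hochberg adjustment ran over all of these, with calls under 0.05. The CPM and log2 fold changes were computed from the deposited counts, and the steps were tested on simulated counts. The simulated libraries had less spread than these data, so that check does not show how often changes of the members' size would be called here. The common biological coefficient of variation was 35.2%. Libraries of 1 group differed by more than sampling noise (chi-square per degree of freedom 10.9 to 28.0). Equal replicate numbers did not deviate together (correlations -0.12, -0.06 and -0.04).

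The members, role groups and companion lists were chosen with earlier results of these data known. Named genes are all members, OSGEP, MYC, ATF4, E2F1, pseudogenes and overlapping genes of members and, of each companion list, up to 3 called genes, those of largest absolute fold change whose mean was 5 CPM or more. Exceptions are named as such, and a few genes that the rule names are not reported here. Codon shares came from 1 coding sequence a gene in GENCODE 29, the best APPRIS principal one and then the longest, and pseudogenes were taken by name (40 for 11 members).

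Alternatives were scaling by RLE factors or by library size alone, a filter at 1 read or at a mean CPM of 5, the replicate block, each library left out, DESeq2 1.42.0, limma-voom (limma 3.58.1) and, added after seeing the data, pseudogene counts added to their genes.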

Additional observations from a re-analysis of the deposited data

How the results depend on the processing

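Over 14 alternatives, 22 of the 31 members kept their direction and their side of the threshold, and of 434 recomputed values 9 lost a call, 6 gained one and 9 changed sign. PNP, DUT and TK1 were called in all 14, and PAICS lost its call in 8. Called members numbered 3 to 5 when a library was left out, and the 3 came without control library 3, where TYMS (-0.58, edgeR adjusted p = 0.0535) and PAICS were not called. They were 4 with the replicate number as a block, 4 with RLE size factors or library size alone, 7 at a mean CPM of at least 5 (with PRPS1 and IMPDH1), 6 with DESeq2 and 8 with limma-voom (with PRPS1, PFAS and IMPDH1). The members' median log2 fold change lay between -0.34 and -0.23, and 25 to 27 members were below 0.

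The sign changes were in genes never called. DTYMK stood at 0.0496 with library size alone, 0.0017 at a mean CPM of at least 5 and 0.00098 with DESeq2, and between -0.106 and 0.0844 with a library left out. With a library left out APRT lay between -0.0785 and 0.132 and UMPS between -0.0851 and 0.260. NME2 stood at 0.0274 with pseudogene counts added.

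Calls over all genes, 1507 in all, lay between 870 and 1624 with a library left out: 941 without knockdown library 3, 890 without control library 2 and 870 without control library 3, with smaller groups; the block gave 1072. Library size alone gave 612 lower and 859 higher, beside 780 and 727, and moved the median of all genes to 0.08. Companion genes called numbered 29 of 98, where 10.8% of all genes tested were called. They numbered 16 to 30 with a library left out (19 without control library 1, 16 without control library 3) and 24 with the block. ADK and AK3 were each lost in 9 of 13 alternatives.

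The cause of these shifts was not tested. A member that was not called is not shown to be unchanged. Fold changes of ADSL, DHODH and UCK1 rest on the fewest counts. The replicate numbers share only a number, and a call lost with the block is not a weaker effect.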

Other observations

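ASNS, the asparagine synthetase that turns aspartate and glutamine into asparagine, had 0, 2.56 and 0 CPM in the control libraries and 0.417, 0.832 and 1.78 CPM in the knockdown libraries and did not pass the filter on low counts. Of its annotated exon bases, 44.6% are shared on the same strand with ENSG00000284707, and how reads in shared exons were assigned is not given in the sources used here. The gene was chosen after its values were seen.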
